A study of Mus musculus with 14 samples.

Results

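The 8 genes described here encode surface molecules with which lymphocytes stick to vessel walls, matrix and each other, enter tissues and leave lymphoid organs: Selplg, Cd44, the integrin subunits Itgal, Itga4, Itgb1, Itgb7 and Itgae, and S1pr1. They were taken by gene symbol from an array matrix of 22203 tested transcript clusters (a transcript cluster is the group of probes that reads 1 gene), and each had 1 transcript cluster, so all 8 were measured and none was filtered out. Signals are log2 values on which a step of 1 is a doubling, and signals of different genes were not compared, since probes differ in brightness.

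The samples were mouse Tregs, the Foxp3-expressing CD4+ lymphocytes that restrain immune responses, sorted by flow cytometry and profiled on 14 arrays. Central Tregs (cTregs) were sorted as CD44 low cells and effector Tregs (eTregs), the more activated subset, as CD44 high cells, both CD4+ and positive for the Foxp3-YFP reporter. The subsets were also gated on another surface protein, which is not reported here, so CD44 was not the only gate between them. There were 4 arrays each of control cTregs and control eTregs and 3 arrays each of cTregs and eTregs labelled Atg14 knockout (KO). The series compared genotypes within each subset, and the sort also allows subsets to be compared within a genotype.

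Cells of every group came from CD45.2+ marrow that carried Foxp3-Cre, a recombinase made in cells that express Foxp3. The KO donors were Atg14 fl/fl, with both alleles flanked by the recombination sites, and the control donors Atg14 +/fl, so that controls also carried Cre and could lose 1 allele. Atg14 encodes a subunit of the Vps34 lipid kinase complex that starts autophagy. In every group this marrow had been mixed with an equal part of CD45.1+ wild-type marrow and grown for 6 to 8 weeks in sublethally irradiated Rag1-/- mice, which make no T or B cells of their own. The study's methods give 1 broad age range for mice of the KO genotype and their controls in general, and none for the donors and hosts of these chimeras in particular. As the source of the cells, the methods give the spleen and the series description adds peripheral lymph nodes. The study describes 4 control and 3 KO chimera mice, as many as the arrays of each subset, so cTregs and eTregs of a genotype appear to share animals, but the labels do not say which arrays do. P values measure the spread between arrays.

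A lymphocyte that leaves the blood is first slowed by selectins, which bind sugars on carriers such as PSGL-1 (the product of Selplg), and is then held by integrins, each a pair of an alpha and a beta subunit. The subunits described here pair as LFA-1 (Itgal with Itgb2), VLA-4 (Itga4 with Itgb1), the gut homing receptor alpha4beta7 (Itga4 with Itgb7) and alphaEbeta7 (Itgae, also CD103, with Itgb7), which binds E-cadherin on epithelia. S1pr1 is the receptor for sphingosine 1-phosphate by which T cells leave lymphoid organs, and the transcription factor Klf2 is known to drive its gene.

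The array medians lay between 8.77 and 8.90, the medians of the background probes between 6.00 and 6.30, and any pair of arrays correlated at 0.962 to 0.994 across transcript clusters. All 12 genes of a Treg identity list were more than 1 log2 unit above background in every group, and Foxp3 differed between genotypes by 0.07 in either subset. All 10 genes of a B cell list were also that far above background in every group. Distance from background therefore does not tell which cells were present. Atg14 went against its label: its signal averaged 9.29 ± 0.0422 (SD, n = 3) in KO cTregs and 8.94 ± 0.256 (SD, n = 4) in control cTregs, and it was also no lower in KO eTregs. The probes' position relative to the flanked exons is not known here, so this does not test the deletion, and "KO" below means the library labelled so. A list of 16 monocyte and macrophage genes summed to 128.7 to 131.0 log2 units in control cTregs, 131.4 to 134.5 in KO cTregs and 143.6 to 149.2 in control eTregs, against 138.6, 170.5 and 169.4 on KO eTreg arrays 1, 2 and 3. None of the 16 lay within 1 log2 unit of background in either eTreg group, and 1 did in each cTreg group. Lists of B cell, neutrophil and erythroid or platelet genes (10 each) had no gene past a limma adjusted P of 0.05 between any of these groups and 0 to 3 at an unadjusted P below 0.05. Of 10 CD8 T cell and NK cell genes, Nkg7, Gzmb and Klrb1c rose and Prf1 and Cd8b1 fell in control eTregs. A list of 13 dendritic cell genes summed to 117.7 to 119.2 in control eTregs and 118.4 to 131.2 in KO eTregs. KO eTreg 1 stood at -4.30 on the leading principal component of the arrays (34.5% of the variance), between the cTreg arrays at -26.6 to -12.8 and the other eTreg arrays at 5.26 to 39.9. Replicate 1 was the lowest array on this component in every group, at -23.8 in control cTregs, -26.6 in KO cTregs and 5.26 in control eTregs. It also had the lowest limma array weight of each group (0.819 and 0.357 in control and KO cTregs, 0.485 and 0.389 in control and KO eTregs). What the replicate 1 arrays share was not tested. In bulk RNA, fewer cells of a type and less RNA per cell cannot be told apart, so the calls that rest on KO eTreg arrays are given with and without them.

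In control arrays the members set the subsets apart: Itgb1, Cd44, Itgae, Itga4 and Itgal rose in eTregs, S1pr1 fell, and Selplg and Itgb7 did not pass the test. That is 6 of 8 members with an adjusted P below 0.05 (limma, Benjamini-Hochberg over all transcript clusters), 5 higher and 1 lower, where 3.58% of all transcript clusters passed, 2.38% higher and 1.20% lower. Cd44 counts among them and among the KO calls below, although its protein was a gate of the sort. The members were chosen with earlier results of these data known, so these shares describe them and do not test them. The median difference of the 8 members was 0.44, against 0.00 over all transcript clusters. The groups did not overlap for 7 members, which held for 11.1% of all transcript clusters. All 16 monocyte and macrophage genes were also higher in control eTregs than in control cTregs, with a median difference of 0.75. Their part in the control subset differences was not tested. Among KO arrays 4 members passed, where 2.43% of all did: Itgb1, Cd44 and Itgae rose (2.06% of all) and S1pr1 fell (0.374%). There the median difference was 0.23, against -0.04 over all, and 6 members did not overlap, against 14% of all.

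**Figure D1:**
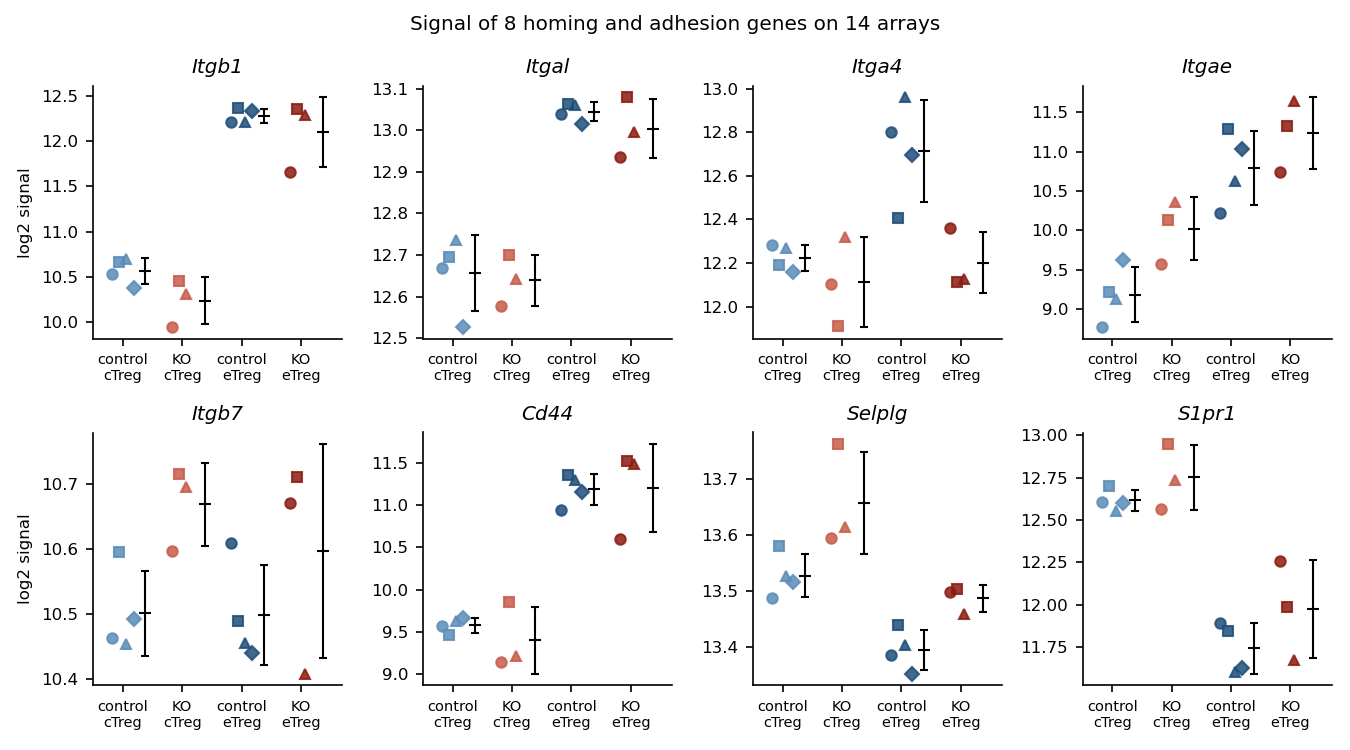
Log2 signal (vertical axis) of the 8 genes on the 14 arrays by group (horizontal axis); each marker is 1 array (circle, square, triangle and diamond for replicates 1 to 4) and the black bar beside them the mean ± SD. Itgb1 and Cd44 lie higher on all eTreg arrays and S1pr1 lower, while KO eTreg 1 (the circle) is the lowest eTreg array for Cd44 and Itgb1; the vertical axes differ and do not start at 0.

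Itgb1, the beta subunit shared by the VLA integrins, gave the strongest subset difference of the members, the 15th smallest P of all transcript clusters in controls. Its log2 signals were 10.52, 10.67, 10.69 and 10.38 on the control cTreg arrays, 9.94, 10.45 and 10.31 on the KO cTreg arrays, 12.21, 12.36, 12.21 and 12.33 on the control eTreg arrays and 11.65, 12.35 and 12.29 on the KO eTreg arrays. Every eTreg array lay above every cTreg array, and the lowest array of each subset was a KO replicate 1. Itgb1 rose by 1.71 ± 0.149 (SE; n = 4 and 4), or 3.28-fold, in control eTregs (limma adjusted P = 7.09e-06) and by 1.86 ± 0.172 (n = 3 and 3) among KO arrays (limma adjusted P = 2.53e-05).

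Cd44 encodes the hyaluronan receptor whose protein was a gate of the sort, so its difference between subsets checks the sort and is no separate finding. Its arrays gave log2 signals of 9.58, 9.46, 9.62 and 9.66 in control cTregs, 9.14, 9.86 and 9.21 in KO cTregs, 10.95, 11.35, 11.29 and 11.16 in control eTregs and 10.60, 11.52 and 11.49 in KO eTregs. The subsets did not overlap, and KO eTreg 1 was the lowest eTreg array. The transcript rose 3.05-fold with the protein gate in controls (1.61 ± 0.192, limma adjusted P = 0.000121) and 3.48-fold among KO arrays (1.80 ± 0.222, limma adjusted P = 0.00036).

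Itgae, the alpha subunit that holds T cells to E-cadherin, varied widely within groups, with SDs of 0.35 to 0.47. Its log2 signals were 8.78, 9.22, 9.13 and 9.63 in control cTregs, 9.58, 10.13 and 10.36 in KO cTregs, 10.22, 11.29, 10.62 and 11.04 in control eTregs and 10.75, 11.32 and 11.64 in KO eTregs. Within each genotype all eTreg arrays lay above all cTreg arrays, but KO cTreg 3 exceeded control eTreg 1. Itgae rose by 1.61 ± 0.248 in control eTregs (limma adjusted P = 0.0011) and by 1.21 ± 0.287 in KO eTregs (limma adjusted P = 0.0352), a call that was lost in each of the fits without KO cTreg 1, KO cTreg 2, KO eTreg 2, KO eTreg 3 or control cTreg 2 (adjusted P between 0.05003 and 0.179), with array medians subtracted (0.0568) and with only both KO groups in the fit (0.0898). Its partner subunit Itgb7 did not move with it, and Cdh1, which encodes E-cadherin itself, differed between subsets by 0.10 in controls (limma adjusted P = 0.895).

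Itgal, the alpha subunit of LFA-1, which binds ICAM-1, had a small difference with little spread. The log2 signals were 12.67, 12.70, 12.74 and 12.53 in control cTregs, 12.58, 12.70 and 12.64 in KO cTregs, 13.04, 13.06, 13.06 and 13.02 in control eTregs and 12.94, 13.08 and 12.997 in KO eTregs. All 7 eTreg arrays lay above all 7 cTreg arrays. Itgal rose by 0.39 ± 0.0838, or 1.31-fold, in control eTregs (limma adjusted P = 0.0133; 0.0530 without control cTreg 4), and among KO arrays the difference of 0.36 ± 0.0968 missed the threshold (limma adjusted P = 0.0609), passing without KO eTreg 1 (0.0443), with a filter on dim transcript clusters (0.0331), with an intensity trend (0.00504) and with a random replicate block (0.0192), while a fixed block gave 0.0605. The LFA-1 beta subunit gene Itgb2 differed by 0.13 in controls (limma adjusted P = 0.705).

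Itga4 encodes the alpha4 subunit, which binds VCAM-1 when paired with beta1 and MAdCAM-1 when paired with beta7. Its log2 signals were 12.28, 12.19, 12.27 and 12.16 in control cTregs, 12.10, 11.91 and 12.32 in KO cTregs, 12.80, 12.41, 12.96 and 12.69 in control eTregs and 12.36, 12.11 and 12.13 in KO eTregs. Control eTregs stood above all other groups, and KO eTregs lay within the range of the cTregs apart from KO eTreg 1, which was just above them. Itga4 rose by 0.49 ± 0.123, or 1.40-fold, in control eTregs (limma adjusted P = 0.0349), a call that was lost when any of 7 of the 8 control arrays was left out (all but control eTreg 2; adjusted P up to 0.133) and when array medians (0.0615) or 75th percentiles (0.0667) were subtracted. Among KO arrays the subset difference was 0.09 (95% interval -0.21 to 0.39, limma adjusted P = 0.842) and the groups overlapped.

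Itgb7 encodes the beta subunit of the gut homing receptor alpha4beta7 and of alphaEbeta7, in which it pairs with CD103. Its log2 signals ran from 10.41 to 10.71 over all 14 arrays and the groups overlapped between subsets. The subset difference was -0.00 in controls (95% interval -0.20 to 0.19) and -0.07 among KO arrays (-0.30 to 0.16).

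Selplg encodes PSGL-1, the main ligand of the selectins on T cells once its sugars are fitted. Log2 signals were 13.49, 13.58, 13.53 and 13.52 in control cTregs, 13.60, 13.76 and 13.62 in KO cTregs, 13.39, 13.44, 13.40 and 13.35 in control eTregs and 13.50, 13.50 and 13.46 in KO eTregs. The cTreg arrays lay above the eTreg arrays within each genotype, yet the differences of -0.13 ± 0.0803 in controls (limma adjusted P = 0.583) and -0.17 ± 0.0928 among KO arrays (0.448) did not pass the test. Averaged over both genotypes, a contrast added after the values were seen, the difference was -0.15 (95% interval -0.28 to -0.02, limma adjusted P = 0.194).

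S1pr1, the egress receptor, was the member that fell. The arrays gave log2 signals of 12.61, 12.70, 12.56 and 12.60 in control cTregs, 12.57, 12.95 and 12.74 in KO cTregs, 11.89, 11.85, 11.60 and 11.63 in control eTregs and 12.26, 11.99 and 11.68 in KO eTregs. No eTreg array reached the lowest cTreg array, and the nearest was KO eTreg 1. S1pr1 fell by 0.87 ± 0.126, or 1.83-fold, in control eTregs (limma adjusted P = 0.000589) and by 0.78 ± 0.145 in KO eTregs (limma adjusted P = 0.00807). The KO call was lost without KO eTreg 3 (adjusted P = 0.0536) and with only both KO groups in the fit (0.122).

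With KO eTreg 1 kept as the only KO eTreg array, because arrays 2 and 3 carried the most macrophage signal, Itgb1 still rose by 1.42 (limma adjusted P = 0.00378) and Cd44 by 1.20 (0.0485). Itgae then differed by 0.72 (0.695) and S1pr1 by -0.50 (0.414), no longer past the threshold. In that fit 0.333% of all transcript clusters passed, against 2.43% with all arrays, and the lone array, which stood apart from the other eTregs, was assumed to vary like the other groups, so these P values have no replicate check within KO eTregs.

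**Figure D2:**
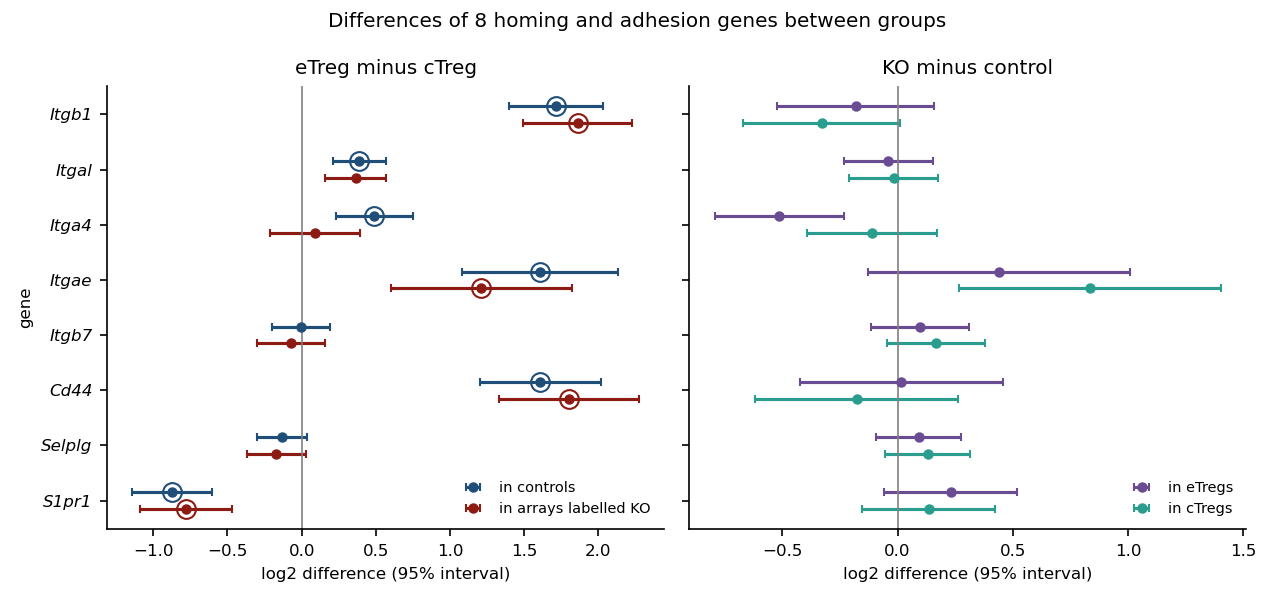
Log2 differences (horizontal axis, points) with 95% intervals (bars) of the 8 genes (vertical axis) between subsets on the left and between genotypes on the right; a ring marks an adjusted P below 0.05 over all 22203 transcript clusters. Rings stand on 6 genes in controls and 4 among KO arrays on the left and on none on the right, where the intervals of Itga4 in eTregs and of Itgae in cTregs exclude 0.

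RefSeq promoter windows (250 bases before to 50 after the start, assembly GRCm38.p6) were present in the table used for 4 of the 8 members: Cd44, Itga4, Itgb1 and Itgb7. The windows of Itga4, Itgb1 and Cd44, which rose in control eTregs, are shown. Klf2, a factor of the homing program, fell in the same comparison, and its part in these rises was not tested. Capitals mark matches to the 3 motifs found, on either strand: GGGNGTGG (KLF family), GGGGCGGGG (Sp1 and KLF) and TGTGGT (RUNX). The windows are chr2:79255176-79255475 on the plus strand for Itga4, chr8:128685404-128685703 on the plus strand for Itgb1 and chr2:102901616-102901915 on the minus strand for Cd44.
Itga4: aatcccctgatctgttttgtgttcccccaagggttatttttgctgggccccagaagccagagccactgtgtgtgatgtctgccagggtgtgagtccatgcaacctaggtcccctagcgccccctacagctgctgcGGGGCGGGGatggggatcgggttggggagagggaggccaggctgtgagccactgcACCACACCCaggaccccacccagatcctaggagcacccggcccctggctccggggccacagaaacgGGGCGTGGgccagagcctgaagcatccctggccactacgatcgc
Itgb1: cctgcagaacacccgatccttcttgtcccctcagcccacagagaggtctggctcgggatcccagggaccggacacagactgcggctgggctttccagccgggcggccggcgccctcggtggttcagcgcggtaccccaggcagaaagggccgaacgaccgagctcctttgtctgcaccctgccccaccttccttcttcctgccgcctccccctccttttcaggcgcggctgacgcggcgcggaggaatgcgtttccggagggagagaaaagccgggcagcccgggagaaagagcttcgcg
Cd44: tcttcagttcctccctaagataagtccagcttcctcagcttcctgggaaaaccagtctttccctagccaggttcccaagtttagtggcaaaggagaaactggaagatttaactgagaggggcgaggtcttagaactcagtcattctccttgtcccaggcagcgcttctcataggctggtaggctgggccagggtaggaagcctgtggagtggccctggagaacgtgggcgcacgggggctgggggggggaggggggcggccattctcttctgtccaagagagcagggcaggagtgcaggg
The Itga4 window held GGGNGTGG at 2 places, starting 59 bases before the start (minus strand) and 6 bases after it, GGGGCGGGG 115 bases before it and TGTGGT 60 bases before it, the last overlapping the KLF family match. Of the 27025 promoters searched, 17.6% held GGGNGTGG, 11.6% GGGGCGGGG and 16.9% TGTGGT. None of the 3 motifs was in the windows of Itgb1, Cd44 or Itgb7, and no window held TGANTCA (AP-1), CACGTG (E-box), CCGGAAG (ETS) or the longer IRF and NF-kB motifs. These matches describe letters, and binding was not measured.

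Between genotypes in eTregs no member passed at the limma adjusted P (0.117% of all transcript clusters did), and 1 member had an unadjusted P below 0.05 (8.03% of all). It was also the 1 past the unadjusted form of the study's threshold, a log2 change of at least 0.5 with an unadjusted P below 0.05 (2.72% of all). That member was Itga4. The 3 KO eTreg signals of 12.36, 12.11 and 12.13 all lay below the lowest control signal of 12.41, a difference of -0.51 ± 0.133 or 1.43-fold (95% interval -0.79 to -0.23, limma adjusted P = 0.205). Its P was the 152nd smallest of all transcript clusters. The adjusted P was 0.0498 without KO eTreg 1 and 0.0298 with array weights, fits in which calls over all transcript clusters also rose, from 0.117% to 2.06% and 2.16%. Itga4 was short of the study's threshold without control eTreg 1 or 3 or KO eTreg 2 or 3, and Itgae passed it beside Itga4 without control eTreg 2 or KO eTreg 1. With KO eTreg 1 kept as the only KO eTreg array, the difference was -0.35 (adjusted P = 0.737), where the lone array was assumed to vary like the other groups.

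The eTreg signals of Itga4 can be set beside the sums of the macrophage genes. KO eTreg 2 and 3, with the highest sums of the 16 genes, had the lowest eTreg signals of Itga4. KO eTreg 1 had a sum of 138.6, below that of every control eTreg array. Its Itga4 signal of 12.36 was just below the lowest control signal of 12.41. On that array the genes of the dendritic cell list went both ways. Siglech, a plasmacytoid dendritic cell gene that rose in KO eTregs (1.78, limma adjusted P = 0.000483), was at 9.78 against 8.37 to 8.86 on the control eTreg arrays. Tcf4 and Bst2 were also above all controls, Bst2 by little (11.58 against 11.56 at most). Flt3, Clec9a, Itgax, H2-Ab1 and Irf8 were below all controls, and the rest of the list lay within their range. The part of RNA from macrophages and dendritic cells in the Itga4 difference was not tested.

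The other members gave no such separation in eTregs apart from Selplg, whose KO arrays lay above all controls by 0.09 on average (95% interval -0.09 to 0.28, limma adjusted P = 0.853). Groups without overlap were found for these 2 members, against 6.85% of all transcript clusters. Itgae differed by 0.44 (95% interval -0.13 to 1.01), S1pr1 by 0.23 (-0.06 to 0.52), Itgb1 by -0.18 (-0.52 to 0.16), Itgb7 by 0.10 (-0.11 to 0.31), Itgal by -0.04 (-0.23 to 0.15) and Cd44 by 0.02 (-0.42 to 0.46). For Cd44 and Itgb1, KO eTreg 1 lay far below the other KO eTregs, and without it their differences were 0.32 and 0.04.

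In cTregs no member passed at the limma adjusted P either (0.0450% of all did), and 1, Itgae, had an unadjusted P below 0.05 (4.01% of all) and passed the study's threshold (0.576%). KO cTreg signals of 9.58, 10.13 and 10.36 stood against control signals of 8.78, 9.22, 9.13 and 9.63, so the lowest KO array fell just under the highest control. The difference was 0.83 ± 0.268 or 1.78-fold (95% interval 0.27 to 1.40, unadjusted P = 0.00683, limma adjusted P = 1.00). Itgb7 and Selplg had KO arrays above all controls, by 0.17 (95% interval -0.04 to 0.38) and 0.13 (-0.05 to 0.31), and such groups without overlap made up 5.05% of all transcript clusters. Itgb1 differed by -0.33 (-0.67 to 0.01), and the other 4 members by -0.18 to 0.14.

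Whether the genotype difference itself differed between subsets was tested by the interaction, which shares arrays with all the contrasts above. No transcript cluster passed at the adjusted P (0.00%; the smallest was 0.107), and 6.12% had an unadjusted P below 0.05, among them Itga4 alone of the members. For Itga4 the interaction was -0.40 (95% interval -0.80 to -0.00235, unadjusted P = 0.0488, limma adjusted P = 0.814). Averaged over both subsets, a contrast added after the values were seen, the genotype difference was 0.64 for Itgae (95% interval 0.23 to 1.04, limma adjusted P = 0.417), -0.31 for Itga4 (0.421) and -0.26 for Itgb1 (0.777), where 0.0901% of all transcript clusters passed.

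**Figure D3:**
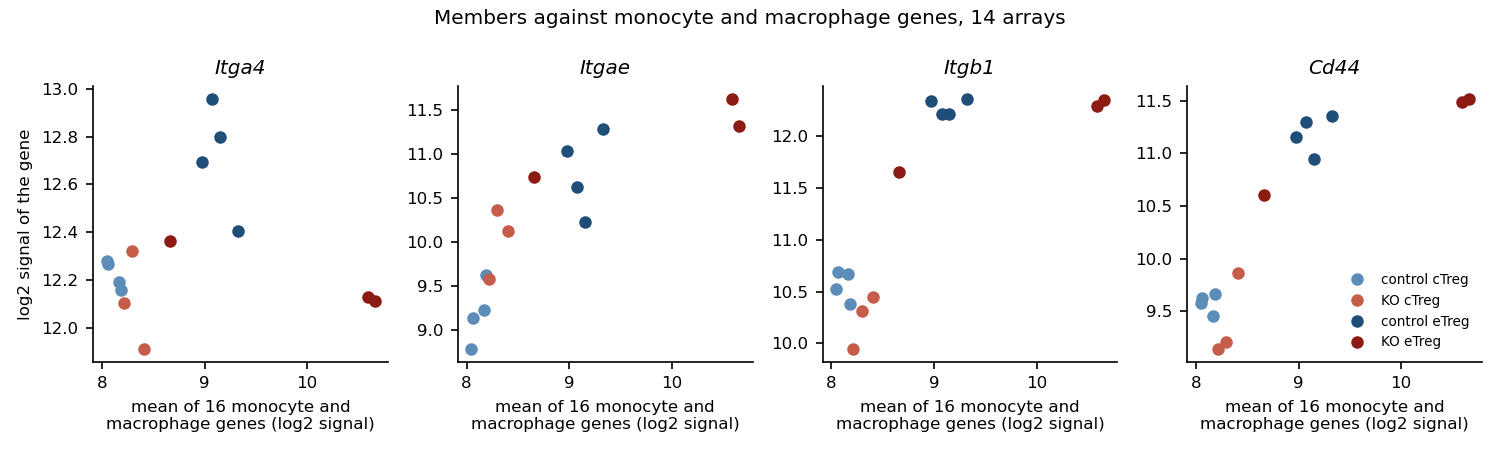
Log2 signal of Itga4, Itgae, Itgb1 and Cd44 (vertical axes, which do not start at 0) against the mean log2 signal of the 16 monocyte and macrophage genes (horizontal axis), 1 point per array coloured by group. KO eTreg 2 and 3 stand apart on the right; KO eTreg 1 lies to the left of the control eTregs, below them for Itga4, Itgb1 and Cd44.

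Correlations between members over all arrays include their subset differences, and some remained when group means were subtracted. Over the 14 arrays, which hold 4 groups, Itgb1 correlated with Itgal at a Pearson r of 0.979 and with Cd44 at 0.978, and with S1pr1 at -0.928. With group means subtracted the coefficients were 0.767, 0.788 and -0.187, and the closest pair was then S1pr1 with Itgb7 at 0.820. The transcript clusters most like each member over the 14 arrays were Rora for Itgb1 (r = 0.986), Cpd for Cd44 (0.991), Irf4 for Itgae (0.973), Itgb1 for Itgal (0.979), Slc4a7 for Itga4 (0.911), Mtmr9 for Selplg (0.945), Aven for S1pr1 (0.967) and Dok2 for Itgb7 (0.910). The deposited annotation gave 7 of the 8 members, all but S1pr1, the term cell adhesion (2.27% of all transcript clusters), and 4, Selplg, Itga4, Itgb1 and Itgb7, the term leukocyte tethering or rolling (0.0676%). It gave 1, Itgb7, the term leukocyte migration (0.108%). The members were chosen as homing and adhesion molecules, so these shares follow from the choice and test nothing.

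Of 129 measured genes on the lists of partners, ligands and regulators of these molecules, 8 rose and 13 fell in control eTregs and 108 did not pass (16.3% called, against 3.58% of all). These lists were also chosen with earlier results of these data known. Among the 20 selectin genes and selectin ligand enzymes, 3 rose: Gcnt1, which builds the branched sugar that PSGL-1 needs to bind P-selectin (1.92, limma adjusted P = 0.00148), Chst2, a sulfotransferase (1.06), and Fut7, which adds the fucose of the same ligand (0.70, limma adjusted P = 0.0308). In the same list Selp, the gene of P-selectin, fell by 1.39 (limma adjusted P = 0.000618).

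Among the 21 other integrin subunits, Itgb8, whose alphavbeta8 integrin activates TGF-beta, rose by 1.42 in control eTregs (limma adjusted P = 0.000221), and Itga2, which pairs with Itgb1 to bind collagen, rose by 1.22 (0.00231). Itga5, the fibronectin receptor subunit that also pairs with Itgb1, fell by 0.60 (0.0381), Itgb3 by 0.52 (0.0178) and Itga6, a laminin receptor subunit, by 0.43 (0.0144), and 16 of the 21 did not pass. Of the 23 integrin activation genes 3 fell and 0 rose in control eTregs: Rasgrp2, an exchange factor that activates Rap1 (-0.66, limma adjusted P = 0.00664), Sipa1l1, a brake on Rap1 (-0.52, 0.0159), and Cytip, which dampens LFA-1 adhesion (-0.49, 0.00369).

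In the list of 19 genes of the sphingosine 1-phosphate axis, 2 fell and 0 rose in controls, S1pr4 by 0.43 (limma adjusted P = 0.00855) and Klf2. Klf2 fell by 0.87 in control eTregs (limma adjusted P = 0.000458) and by 0.75 in KO eTregs (0.0084; 0.0536 without KO eTreg 3), beside S1pr1. Cd69, whose protein takes S1PR1 off the surface, differed by 0.02 in controls (limma adjusted P = 0.972). Of 27 adhesion ligand genes, Alcam (1.57, limma adjusted P = 1.97e-06), Cd82 (0.72) and Icam1 (0.55) rose, and Pecam1 by 0.64 and Cd9 by 0.43 fell. Of 19 genes of hyaluronan and the cell cortex 1 fell, Ezr, whose product ezrin ties CD44 to actin (-0.39, limma adjusted P = 0.0275).

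**Figure D4:**
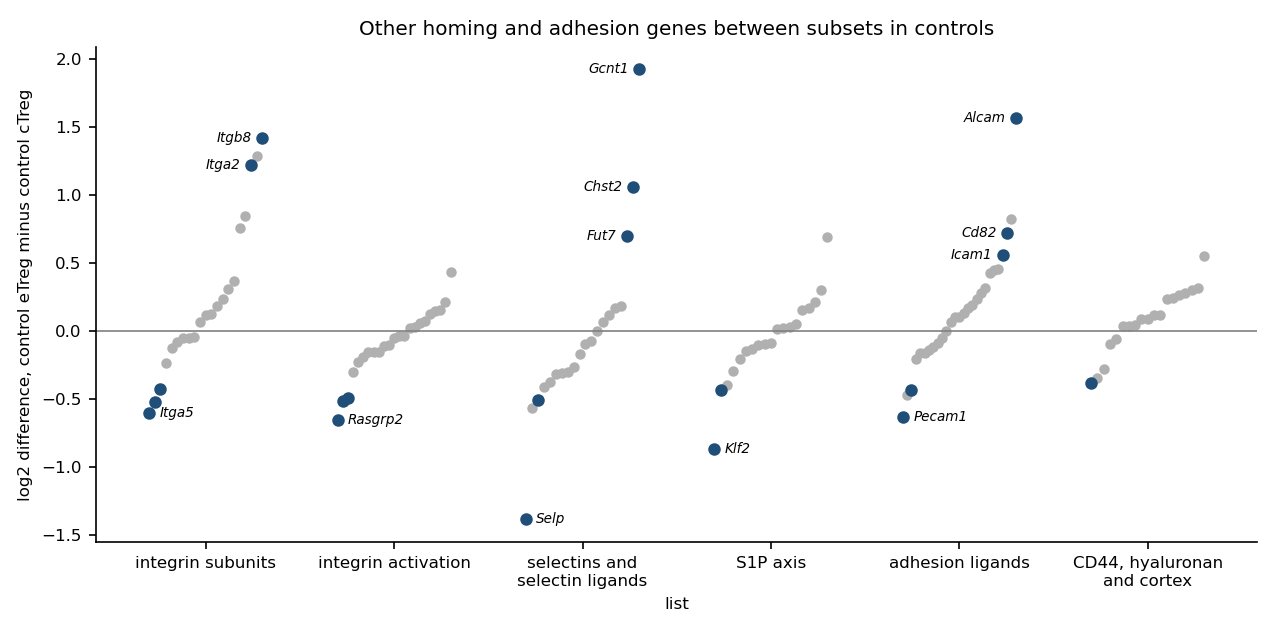
Log2 difference between control eTregs and control cTregs (vertical axis) for the 129 measured genes of 6 lists (horizontal axis), each point 1 gene, ordered within its list; blue points have an adjusted P below 0.05 and carry a name where the difference exceeds 0.55 in size. Gcnt1, Alcam and Itgb8 lie highest and Selp and Klf2 lowest.

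Among KO arrays 8 of the 129 genes rose and 3 fell (8.53%, against 2.43% of all transcript clusters). Gcnt1 (2.15), Itga2 (1.28), Alcam (1.24), Itgb8 (0.94) and Cd82 (0.57) rose as they did in controls, and Selp (-1.28), Klf2 (-0.75) and Cytip (-0.47) fell. Itgax, a dendritic cell and macrophage integrin that is on the dendritic cell list too, rose by 1.52 (limma adjusted P = 0.0201), Spp1, the gene of osteopontin, by 0.77 (0.0383) and Itga7 by 0.56 (0.0429). The macrophage list moved with these: 8 of its 16 genes passed in this comparison (16 at an unadjusted P below 0.05). In controls 2 of the macrophage genes passed, Cybb and Axl (9 at an unadjusted P below 0.05). Of the 13 dendritic cell genes, 5 passed in this comparison (7 unadjusted) and 0 in controls (8 unadjusted). The part of those cells in these differences was not tested. Without KO eTreg 1, 16 of the 129 rose and 9 fell (5.86% of all transcript clusters passed), without KO eTreg 2, 4 rose and 2 fell (1.16% of all), and without KO eTreg 3, 4 rose and 1 fell (0.986% of all). Of the 11 genes called with all arrays, Itga2, Gcnt1, Alcam and Selp passed in each of these fits, while Itgax and Spp1 did not pass without KO eTreg 2 or 3. With KO eTreg 1 as the only KO eTreg array, Alcam alone passed (1.20, limma adjusted P = 0.0169), and Itgax differed by 0.37 (0.726). No gene of the 129 passed between genotypes in either subset by limma, and 14 had an unadjusted P below 0.05 in eTregs (10.9%, against 8.03% of all) and 0 in cTregs (against 4.01% of all).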

How the data were processed

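Signals of 14 Clariom S mouse arrays were analysed. The authors summarised the probes by robust multi-array average with Affymetrix Expression Console 1.1 and deposited log2 signals, quantile normalised over arrays; the probe-level scans were not used here, so background correction could not be varied. Of 28846 entries, 6640 control sets and 3 without a symbol were left out and 22203 were tested with no filter on signal. Groups came from the labels. Each transcript cluster was modelled by its 4 group means using limma 3.58.1 under R 4.3.3 (10 residual and 5.65 prior degrees of freedom), and P values are two-sided and Benjamini-Hochberg adjusted over all 22203. A member was called at an adjusted P below 0.05 with no limit on size. The study's threshold is used here in its form of a log2 change of at least 0.5 with an unadjusted P below 0.05. The study's methods allow an adjusted or an unadjusted P, depending on the figure or table. The named genes of the lists were the 6 largest rises and falls past an adjusted P of 0.05 and a log2 change of 0.5 in a subset comparison, with the partner genes Itgb2, Klf2, Cd69, Fut7, Gcnt1 and Cdh1; Icam1, Itga6, Itga7, Sipa1l1, Cytip, S1pr4, Cd9, Ezr and, among KO arrays, Cd82 were added after their values were seen, and 1 gene is not reported here. Siglech, Tcf4, Flt3, Clec9a and Irf8 of the dendritic cell list were also named after their values were seen. Fits were tested on simulated data. The members and lists were chosen with earlier results of these data known. The same number on a cTreg and an eTreg array is not said to mark an animal, so arrays were not paired in the main fit. Deviations of such pairs correlated at 0.0443 to 0.303, and those of KO and control arrays of the same number and subset at 0.0101 to 0.291. These values do not settle whether pairs share an animal. With a random replicate block, 5.39% of all transcript clusters were called between subsets in controls and 4.71% among KO arrays. Alternatives were other scaling, a filter on dim transcript clusters, array weights, a variance trend, fits of the 2 groups compared, replicate blocks and leaving out arrays. The number of arrays limits the precision.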

Additional observations from a re-analysis of the deposited data

Results flagged for a closer look

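The genotype difference of Itga4 was -0.51 in eTregs and -0.11 in cTregs, and it drew attention because the test of the difference between them, the interaction, gave -0.40 with an unadjusted P of 0.0488. After adjustment over all 22203 transcript clusters the limma P was 0.814, so the result fails the correction, and 6.12% of all transcript clusters had an unadjusted P as small as this threshold asks. All 3 KO eTreg arrays lay below all 4 control eTreg arrays, while the cTreg groups overlapped. The 16 monocyte and macrophage genes summed to 138.6, 170.5 and 169.4 on the KO eTreg arrays and to 143.6 to 149.2 on the control eTreg arrays, and their part in the difference was not tested. No array of a control group stood apart by the spacing of its 4 values in any of 16 member and group pairs.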

How the results depend on the processing

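Of the values recomputed under alternatives, 855 kept their direction and side of the threshold, 21 lost a call, 6 gained 1 and 30 changed sign. The cause of each change was not tested, apart from fewer arrays where some were left out. Members called among KO arrays between subsets fell from 4 to 2 with only the 2 groups compared. They numbered 2 to 5 without 1 array, 2 without KO eTreg 3 and 5 without KO eTreg 1. All transcript clusters called moved too, from 2.43% to 0.599% with only the 2 groups, 0.986% without KO eTreg 3 and 5.86% without KO eTreg 1. Calls at the adjusted P between genotypes in eTregs went from 0 to 1 with array weights and 0 to 1 without 1 array, with 2.16% of all transcript clusters called under array weights and 2.06% without KO eTreg 1 against 0.117%, and those at the study's threshold from 1 to 0 with array medians subtracted, 2 with array weights, 2 with a fixed replicate block and 0 to 2 without 1 array; in the interaction the latter count was 0 to 1 without 1 array, Itga4 passing without KO cTreg 2 or control eTreg 2. Shares of all transcript clusters past the study's threshold are not given for these alternatives. The member counts at that threshold therefore cannot be set against all transcript clusters. No paired block, fixed or random, moved another count by over 1.5 times (6 of 8 members in controls under both), though with a random block 5 members were called among KO arrays (4.71% of all). An alternative added after the values were seen kept KO eTreg 1 as the only KO eTreg array. In that fit the sign changed for Itgb7 between subsets (0.00281), for Cd44 (-0.59) and Itgae (-0.0484) between genotypes in eTregs, and for the interaction of Cd44 (-0.41), Itgb1 (-0.30) and Itgb7 (0.00536). Other signs changed only near 0: with 75th percentiles subtracted, Itgb7 between subsets in controls (0.00395), Cd44 between genotypes in eTregs (-0.00318) and Itgal in cTregs (0.00131); with array weights, the interaction of S1pr1 (-0.0132); with medians subtracted, that of Itgal (0.00902). Without 1 array, Itgb7 between subsets ranged from -0.0395 to 0.029 in controls and -0.13 to 0.0227 among KO arrays, Itga4 among KO arrays from -0.0109 to 0.19, Cd44 and Itgb1 between genotypes in eTregs from -0.14 to 0.32 and -0.31 to 0.0393, Itgal in cTregs from -0.061 to 0.0137, and the interactions of S1pr1 from -0.0455 to 0.24, Selplg from -0.0697 to 0.0142, Itgal from -0.0604 to 0.0203, Itgb1 from -4.58e-05 to 0.37 and Itgb7 from -0.13 to 0.0252. Another transcript cluster for a member could not be tried, since each has 1.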
